A study of Mus musculus with 10 samples.

Results

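The genes described here are 41 markers of endothelial identity and of vessel subtypes, picked by gene symbol from tables of 24302 genes measured in whole mouse embryos. Of these, 39 were found under the listed symbol, and the other 2, *Adgrl4* and *Adgrf5*, stood under their older names *Eltd1* and *Gpr116*. RNA was sequenced from 10 embryos of the strain C57BL/6 at embryonic day 11.5: 3 wildtype embryos, 3 heterozygous embryos carrying 1 deleted copy of *Wwc2*, and 4 homozygous *Wwc2* knockout (KO) embryos. *Wwc2* codes for a scaffold protein upstream of the Hippo kinases, and the deletion was made with a Cre recombinase under the *Zp3* promoter, which is active in growing oocytes, so that all cells of the embryo carry it. Each value below is the authors' mean normalized read count over all 10 embryos, that is, reads per gene after scaling for sequencing depth. It mixes the 3 genotypes, carries no error and allows no comparison between them, and it cannot check the genotype of any embryo. The authors' own genotype comparisons and values per embryo were not used here. Endothelial RNA is a part of the RNA of a whole embryo, and fewer endothelial cells cannot be told apart from less RNA per cell.

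Endothelial cells line all blood and lymphatic vessels. They are held together by VE-cadherin and PECAM1, depend on transcription factors of the ETS family, and take on arterial, venous, lymphatic or tip cell states under the control of Notch, angiopoietin, apelin and adrenomedullin signals. At midgestation the first vascular network of the mouse is being remodeled into larger and smaller vessels, the endocardium lines the heart, and the first lymphatic cells leave the cardinal veins.

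All 41 genes had a mean above 0, as did 85.0% of all genes in the tables. Of the 41, 40 had a mean normalized count of at least 100, against 61% of the 20665 genes with a mean above 0. The exception was *Gpihbp1*, which anchors lipoprotein lipase to capillaries, with a mean of 42.0. Together the 41 genes took 0.196% of all normalized counts, which sum to 2.56e+07 per embryo. Because long transcripts collect more reads, levels of different genes were compared only after dividing by the summed length of all annotated exons in kilobases. On this scale the genes spanned a 67.1-fold range, from 16.4 for *Gpihbp1* to 1102 for *Cdh5*, with a median of 178 against 78.4 for all 19451 genes with a mean above 0 and a length. In the top 25% of all genes per kilobase, at or above 284, were 12 of the 41 genes (29.3%), against 25% of all genes by construction. The top 10% held 3 of the 41, against 10% of all genes by construction, and the difference from that share was not tested. The genes next to the limit of the top 25% were *Aplnr* with 296 inside it and *Ets1* with 273 outside it.

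**Figure D1:**
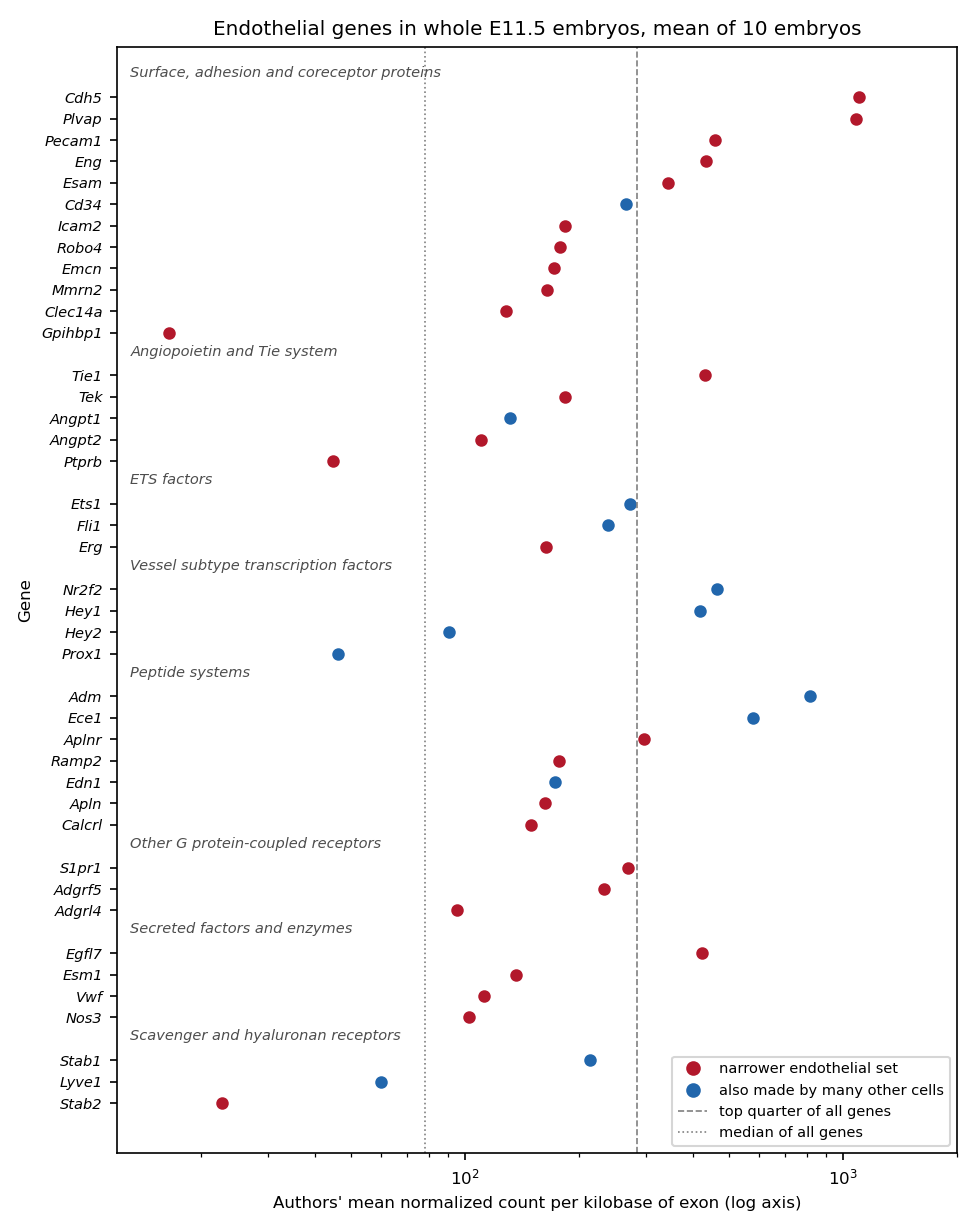
Authors' mean normalized count per kilobase of exon (x axis, log scale) of the 41 endothelial genes (y axis), grouped by role, as 1 mean over 10 embryos with no error, in red for the narrower endothelial set and in blue for genes that many other cells also make, with a dotted line at the median of all genes. *Cdh5* and *Plvap* lie farthest to the right at 1102 and 1079, 12 genes lie right of the dashed line at 284, and *Gpihbp1* is lowest at 16.4.

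Surface and adhesion proteins held both ends of the range. *Cdh5*, which codes for VE-cadherin, the cadherin of endothelial junctions, had the highest mean of all 41 genes (4633 normalized counts, 1102 per kilobase) and stood at rank 1073 of all genes per kilobase. *Plvap*, a protein of the diaphragms of fenestrae and caveolae, followed closely per kilobase with 1079 from a mean of 2143. The junctional immunoglobulin protein gene *Pecam1* had a mean of 2855 and 458 per kilobase, and *Eng*, a coreceptor for BMP9 and other TGF-beta ligands, a mean of 1752 and 433 per kilobase. These genes and *Esam*, a tight junction protein with 343 per kilobase, were the 5 of the 12 surface genes in the top 25%.

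The other 7 surface genes were lower per kilobase of exon, with *Gpihbp1*, given above, far below the rest. *Cd34*, a sialomucin also made by blood progenitors and some mesenchyme, had 267 per kilobase, *Icam2* 184, and *Robo4*, a receptor that stabilizes vessels, 178. The sialomucin *Emcn*, typical of capillaries and veins, stood at 171 per kilobase. *Mmrn2*, a matrix protein, and *Clec14a*, its C-type lectin binding partner on the cell surface, had 165 and 128 per kilobase. Without values per embryo the order of these genes has no error to be judged by, and by coding sequence it changed, from 232 for *Mmrn2* to 1183 for *Emcn* and 1698 for *Cd34*.

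In the angiopoietin system, the orphan receptor *Tie1* was the most abundant transcript. Its mean was 2124 normalized counts and its level 432 per kilobase, 2.36-fold that of *Tek*, which codes for the angiopoietin receptor TIE2 (mean 863, 183 per kilobase). The agonist *Angpt1*, made mostly by cells around vessels and by the heart, had 131 per kilobase from a mean of 683. The context-dependent ligand *Angpt2*, released by endothelium, had 110 from a mean of 406. *Angpt1* was 1.19-fold higher than *Angpt2* by all exons, 1.41-fold by the longest transcript and 1.68-fold by coding sequence. *Ptprb*, the phosphatase VE-PTP that dampens TIE2 and VE-cadherin phosphorylation, was at 44.6 per kilobase, below the median of all genes, although its mean of 595 was higher than that of *Angpt2*. Its annotated exons sum to 13333 bases, and the order by mean and the order per kilobase differ for that reason.

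The 3 transcription factors of the ETS family spanned a 1.67-fold range per kilobase of exon, which widened to 2.61-fold by the longest transcript and 4.50-fold by coding sequence. *Ets1*, also active in neural crest and blood cells, had a mean of 2315 and 273 per kilobase, *Fli1*, shared with blood cells, 834 and 239, and *Erg*, the one of the 3 most restricted to endothelium at this stage, 568 and 164. *Fli1* and *Ets1* are neighbors on chromosome 9 of GRCm38 (32422204 to 32542861 and 32636221 to 32757820), on opposite strands with 93.4 kb and 0 other coding genes between them. By all exons none of the 3 reached the top 25%, while *Ets1* was inside it by the longest transcript and by coding sequence.

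ETS factors recognize sites around the letters GGAA. RefSeq start-site windows of 300 bases, 250 before and 50 after each start (build GRCm38.p6), were at hand for 22 of the 41 genes, 31 windows in all. GGAA stood on either strand in 29 of these windows (93.5%) and in 96% of all 32851 windows, so its presence alone does not set these genes apart. The median was 4 occurrences per window for the endothelial genes and 3 for all. AGATAA, a form of the site of GATA factors, stood in 3 windows (9.68%), those of *Edn1*, *Erg* and *Tek*, against 11.2% of all. Of the 31 windows, 7 (22.6%) had a ratio of observed to expected CpG of at least 0.6, against 35.8% of all windows. The median ratio was 0.321 against 0.384. Among the 7 were windows of *Ece1* with ratios of 0.777, 0.742 and 0.656, so the 7 stand for fewer genes. Windows of 1 gene can overlap. A match is a stretch of letters and not a measured binding site.

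The stretches before the starts of *Eng*, *Tek* and *Clec14a* are printed as examples of how such letters are spread, with GGAA and its reverse complement TTCC in capitals. The first is chr2:32646345-32646594 on the plus strand, the second chr4:94739039-94739288 on the plus strand and the third chr12:58269291-58269508 on the minus strand, all of GRCm38.p6, 5′ to 3′, without bases that the annotation places in an exon of the gene. They hold 3, 2 and 6 occurrences. Not every such stretch holds the letters: that of *Robo4*, 175 bases at chr9:37401722-37401896 on the plus strand, is not printed and held 0.

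Eng: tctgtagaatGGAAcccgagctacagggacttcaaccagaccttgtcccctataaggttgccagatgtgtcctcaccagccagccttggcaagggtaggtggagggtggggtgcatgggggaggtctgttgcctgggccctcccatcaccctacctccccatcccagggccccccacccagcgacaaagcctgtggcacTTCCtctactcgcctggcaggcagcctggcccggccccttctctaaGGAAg

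Tek: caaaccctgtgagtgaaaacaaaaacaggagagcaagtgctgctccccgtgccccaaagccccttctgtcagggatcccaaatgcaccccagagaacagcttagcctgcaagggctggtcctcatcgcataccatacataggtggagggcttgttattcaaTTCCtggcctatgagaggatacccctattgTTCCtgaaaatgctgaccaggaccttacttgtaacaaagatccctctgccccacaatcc

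Clec14a: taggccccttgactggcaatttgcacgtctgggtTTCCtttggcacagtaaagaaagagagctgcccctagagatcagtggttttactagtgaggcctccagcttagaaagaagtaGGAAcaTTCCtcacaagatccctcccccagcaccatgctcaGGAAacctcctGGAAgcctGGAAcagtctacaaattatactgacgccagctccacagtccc

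Transcription factors of vessel subtypes differed widely. *Nr2f2* (COUP-TFII), which sets venous identity and is also made in much of the mesenchyme, had a mean of 3999, the second highest of the 41 genes, and 464 per kilobase. Both *Hey* genes are Notch targets of arteries and of the heart, and *Hey1* was 4.63-fold higher than *Hey2* per kilobase (418 and 90.5, from means of 1366 and 415). *Prox1*, the master regulator of lymphatic endothelium, which the liver, lens, heart and nervous system also express, had a mean of 387 and only 46.1 per kilobase. All 4 genes belong to the 13 of the 41 that other cells of the embryo are known to make as well, so these levels are not levels of arteries, veins or lymphatics.

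The peptide genes belong to the adrenomedullin, apelin and endothelin systems, and for endothelin the 41 genes hold no receptor. *Adm*, the adrenomedullin precursor, had the third highest level of all 41 genes (mean 1319, 815 per kilobase). Its receptor *Calcrl* and the receptor activity-modifying protein *Ramp2*, which together make the adrenomedullin receptor, had 149 and 177 per kilobase. *Ramp2* was 1.19-fold higher than *Calcrl* by all exons and 2.65-fold by the longest transcript. The value of *Ramp2* is uncertain, since 33.4% of its exon length overlaps exons of *Vps25* on the same strand. The apelin receptor *Aplnr*, found on venous and early endothelium, stood at 296 per kilobase, 1.82-fold its ligand *Apln*, a product of tip cells, with 162. This order depends on the length used, because *Apln* has a short coding sequence of 231 bases: per kilobase of coding sequence *Apln* had 2214 and *Aplnr* 969. *Ece1*, the protease that activates endothelin and is made by many cells, was at 577 per kilobase, 3.34-fold *Edn1*, the gene of the endothelin precursor, with 172, and 2.22-fold by coding sequence.

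Among the other receptors coupled to G proteins, *S1pr1*, the receptor for sphingosine 1-phosphate that limits sprouting, had 270 per kilobase from a mean of 821. The adhesion receptor *Adgrf5* had a mean of 2095 and 233 per kilobase, and *Adgrl4* a mean of 436 and 95.0 per kilobase.

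Secreted factors and enzymes were led by *Egfl7*, a matrix protein of growing vessels, with a mean of 1510 and 422 per kilobase. Its exons overlap 4 other annotated genes, among them the microRNA genes *Mir126a* and *Mir126b* and the coding gene *Gm20532*. The tip cell gene *Esm1* had a mean of 286 and 136 per kilobase. *Vwf*, the von Willebrand factor of endothelium and platelets, had a high mean of 1800 but annotated exons that sum to 16064 bases, which gave 112 per kilobase. By its longest transcript, of 8834 bases, it had 204. *Nos3*, the endothelial nitric oxide synthase, had 102 per kilobase, and 25.2% of its exon length overlaps the antisense gene *Gm15587*.

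Scavenger and hyaluronan receptors were the lowest group, with a median of 59.9 per kilobase. *Stab1*, which macrophages make as well as sinusoidal endothelium, had a mean of 2199 and 214 per kilobase, 9.38-fold the 22.8 of *Stab2*, a receptor of liver sinusoids, whose mean was 199. *Lyve1*, found on lymphatic and yolk sac endothelium and on macrophages, had the lowest mean of the 3, 175, but lay between them per kilobase with 59.9. The part of macrophages in the levels of *Stab1* and *Lyve1* was not tested. All 10 macrophage markers were above 0, from 4.85 per kilobase for *Ptprc* to 225 for *Cd68*.

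**Figure D2:**
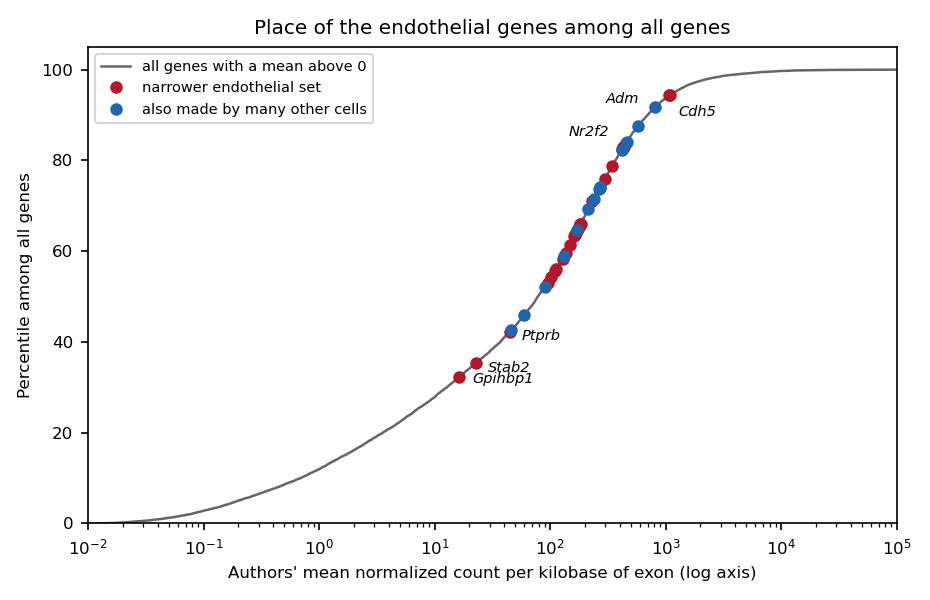
Percentile among all 19451 genes with a mean above 0 and a length (y axis) against the authors' mean normalized count per kilobase of exon (x axis, log scale), with all genes as a gray line and the 41 endothelial genes as points in red (narrower set) or blue (also made by other cells). The points run from percentile 32.3 for *Gpihbp1* to 94.5 for *Cdh5*, and their median lies at 65.3.

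The genes that other embryonic cells also make were not uniformly the more abundant ones. The 13 of them had a median of 239 per kilobase, from 46.1 for *Prox1* to 815 for *Adm*, with 4 in the top 25%. The 28 genes of the narrower endothelial set had a median of 174, from 16.4 to 1102, with 8 in the top 25%. The ranges overlap over most of their length. This division was made from general knowledge of the genes and not from these embryos.

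Genes of other cell types give a scale for these levels in a whole embryo. The 10 mural cell markers, of the pericytes and smooth muscle cells that wrap vessels, had a median of 339 per kilobase. They ran from 18.9 for *Myh11* to 2276 for *Acta2*, and *Acta2* is also made by the heart at this stage. This list was split. *Acta2*, *Tagln*, *Notch3* and *Des* lay above *Pdgfrb* with 600, while *Abcc9*, *Kcnj8*, *Cspg4* and *Myh11* lay below *Rgs5* with 77.7. No mural marker lay near the median, so it does not rank mural against endothelial levels. The part of other cells in the mural marker levels was not tested. The 8 megakaryocyte markers, of the blood lineage that shares *Vwf* and *Pecam1* with endothelium, had a median of 99.5, from 3.61 for *Gp6* to 1073 for *Pf4*, and their part in both genes was not tested. The 8 red blood cell markers took 0.987% of all normalized counts, against 0.121% for the 28 genes of the narrower endothelial set. The 8 heart muscle markers and the 8 liver markers took 0.100% and 0.148%. These shares are not divided by length, and the lists differ in size. Per kilobase the medians were 1291 for red blood cells, 174 for the narrower endothelial set, 491 for heart muscle and 1503 for liver. Every gene of these lists had a mean above 0, as did 85.0% of all genes in the tables, and a mean above 0 can come from 1 read in 1 embryo. Among 28 other vascular genes outside the 41, all were above 0 and the median was 241 per kilobase. The highest of these was *Vegfa* with 1468, and *Ephb4*, the venous ephrin receptor, had 1103, about the level of *Cdh5*. The lowest was *Etv2*, which starts endothelial fate earlier in development, with a mean of 3.18 normalized counts.

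**Figure D3:**
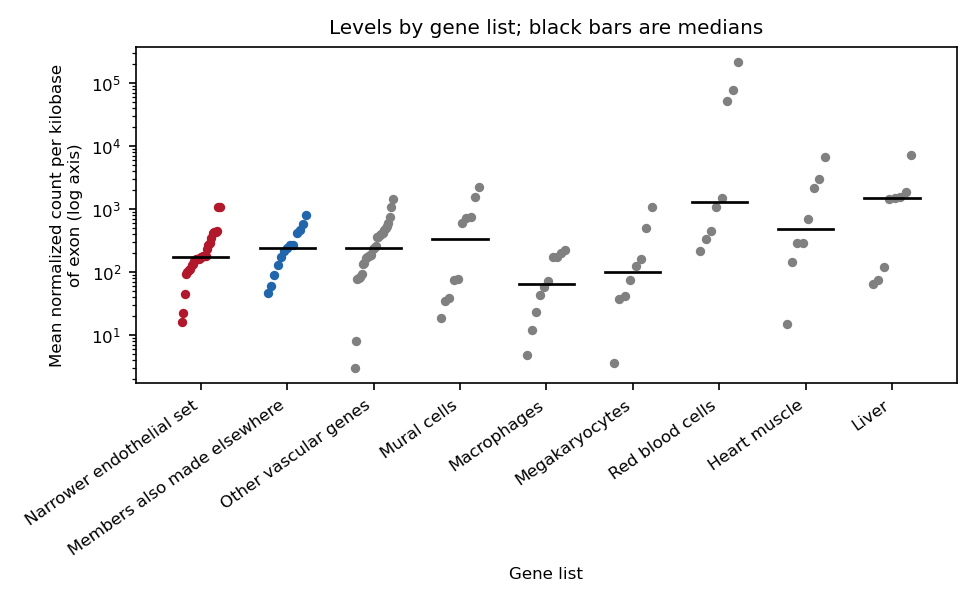
Authors' mean normalized count per kilobase of exon (y axis, log scale) of single genes (points) by gene list (x axis), with black bars at the medians. The narrower endothelial set has its median at 174, the mural list at 339, the macrophage list at 65.0 and the red blood cell list at 1291. The mural median falls in a gap between 77.7 for *Rgs5* and 600 for *Pdgfrb*.

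Several of the 41 genes lie near each other in the genome. How often other sets of 41 genes hold such pairs was not determined, so their number is a description only. Apart from *Fli1* and *Ets1*, 4 more pairs lay within 1 Mb on the same chromosome of GRCm38. *Robo4* and *Esam* are 113 kb apart on chromosome 9 (37401897 to 37415115 and 37528078 to 37538319), on the same strand, with *Msantd2* and *Robo3* between them. Per kilobase they had 178 and 343. *Icam2* and *Pecam1*, both of the immunoglobulin superfamily, are 266 kb apart on chromosome 11 (106377656 to 106388075 and 106654217 to 106750628), again on the same strand, with 184 and 458 per kilobase. *Adm* and *Lyve1* are 221 kb apart on chromosome 7 on opposite strands, and *Calcrl* and *Aplnr* 711 kb apart on chromosome 2 with 23 coding genes between them. Per kilobase of all exons the ratios in the 5 pairs ran from 1.14-fold for *Ets1* over *Fli1* to 13.6-fold for *Adm* over *Lyve1*. The ratio of *Ets1* to *Fli1* was 1.81 by the longest transcript and 2.85 by coding sequence.

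The depth behind these means could be read from the lowest values in the tables. A gene with 1 read in 1 embryo has a mean that depends only on the depth of that embryo, and 10 such values were found, 1 for each embryo. They correspond to size factors, the relative depths used for the scaling, between 0.616 and 1.23, a 1.99-fold range. All 991 genes with a mean under the level of 3 reads of the deepest embryo were explained by 1 or 2 reads within a tolerance of 1e-06. The size factors were read from the lowest of these same means, so for genes with 1 read the match was fixed in advance. Which factor belongs to which embryo or genotype was not determined. With these limits, *Gpihbp1* rested on 258 to 516 reads over all 10 embryos, *Lyve1* on 1077 to 2150 and *Cdh5* on 28552 to 56950. Counting error is therefore small for all 41 genes, while the spread between embryos is unknown.

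**Figure D4:**
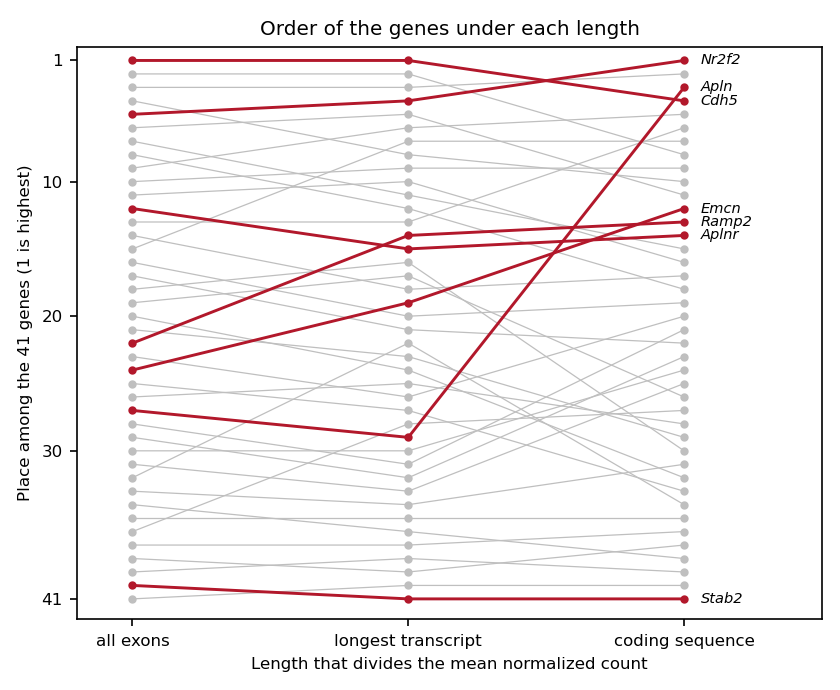
Place of each of the 41 genes by level (y axis, 1 is highest) when the mean normalized count is divided by the length of all exons, of the longest transcript or of the longest coding sequence (x axis). *Apln* moves from place 27 to 3 and *Emcn* from 24 to 12, while *Stab2* stays at place 40 or 41.

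The choice of length changed the places of single genes and of groups. By coding sequence the peptide systems had the highest median of the 8 role groups, 1031 per kilobase, against place 5 by all exons, while the scavenger receptors had the lowest median under each of the 3 lengths. *Ets1*, *Cd34* and *Ramp2* entered the top 25% under both other lengths, and *Aplnr* left it under both. *Apln* and *Emcn* entered it, and *Eng*, *Esam* and *Tie1* left it, by coding sequence alone. Divided by coding sequence instead of all exons, the level of *Apln* was 13.6-fold higher, that of *Nr2f2* 6.94-fold and that of *Emcn* 6.91-fold, while that of *Stab2* was 1.14-fold higher. The limit of the top 25% itself rose, from 284 by all exons to 385 by the longest transcript and 1009 by coding sequence. *Cdh5* stood at place 1 by all exons and by the longest transcript and at place 4 by coding sequence. *Nr2f2*, *Adm* and *Cdh5* were among the first 5 places under each of the 3 lengths, and *Gpihbp1* and *Stab2* held the last 2 under each.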

How the data were processed

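The authors homogenized whole embryos, selected poly(A) RNA and made NEBNext Ultra libraries, with a directional kit named in the paper's methods. The submitters' processing notes list Trimmomatic 0.33, HISAT2, HTSeq and DESeq2 as tools and mm10 as the build. The strand setting of the counting is not given in the sources used here. The deposited signal used here is the column of mean normalized counts over all 10 embryos, equal in both deposited tables within a relative 1e-06. The other columns hold the authors' comparisons of KO and heterozygous with wildtype embryos (log2 fold changes, standard errors, test statistics, p-values) and were not used.

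Means were divided by lengths from GENCODE release M21 (GRCm38), matched by Ensembl identifier for 22788 genes. Python 3.11.15 with pandas 2.3.3 was used, and reading of size factors was tested on simulated data. No test was made, since no values per embryo were used. All 41 genes were named. The members and gene lists were chosen with earlier results of these data known. Alternatives changed the length, the genes that set the top 25%, the threshold of 100 and the table read.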

Additional observations from a re-analysis of the deposited data

How the results depend on the processing

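The number of genes in the top 25% per kilobase, 12 of 41, was 14 with the longest transcript, 13 with the coding sequence, 11 with the limit set by protein-coding genes alone and 10 with genes of a mean of at least 10. The number with a mean of at least 100, 40 of 41, was 40 at a threshold of 50 and 38 at 200. Reading the means from the other table could only return the same 40, since both hold the same means, and is no check of stability. Of 7 ordered pairs under 2 other lengths (14 comparisons), 1 reversed: the log2 ratio of *Apln* to *Aplnr* was -0.87 per kilobase of all exons and 1.19 per kilobase of coding sequence. No paired analysis was possible because the values are means over all 10 embryos, and for the same reason no embryo could be left out. The means mix 3 genotypes, so a level here is that of no single genotype. Exons of 11 of the 41 genes overlap another annotated gene, 5 of them a coding gene, and reads in such stretches may be lost or assigned to the other gene.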
